A study of Mus musculus with 10 samples.

Results

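The core histone genes of the mouse encode the 4 histones around which DNA is wrapped, H2A, H2B, H3 and H4, and the linker histone H1, and most of them lie in a few tight clusters. Members were taken by name: every autosomal protein-coding gene of the RefSeq annotation whose mm10 symbol starts with Hist1h, Hist2h, Hist3h or Hist4h, read through the synonym column where the annotation now uses a newer symbol such as H2bc8 for Hist1h2bg. This gave 67 genes of 20558 autosomal protein-coding genes, with 54 on chromosome 13, 10 on chromosome 3, 2 on chromosome 11 and 1 on chromosome 6. By class there were 6 H1, 18 H2A, 18 H2B, 12 H3 and 13 H4 genes. No measured value entered this rule, which was set with earlier results of these data known.

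These genes are known as replication-dependent histone genes. In dividing cells they are transcribed in S phase, when new DNA needs new nucleosomes, at nuclear bodies organised by the protein Npat, and most of their mRNAs end in a stem-loop in place of a poly(A) tail. Neurons no longer divide, and their chromatin is known to depend largely on replacement histones such as H3.3, which are made outside S phase. H3K4me3, trimethylation of lysine 4 on histone H3, sits around the start sites of active or poised genes.

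H3K4me3 was mapped by chromatin immunoprecipitation and sequencing in nuclei that carried the neuronal protein NeuN, sorted from area CA1 of the hippocampus, with 0.2 µg of chromatin per precipitation. The comparison asks how a CaMKIIδC transgene, written CamkdeltaC in the labels, goes along with this mark. Of the 8 libraries, 4 (transgenic 1 to 4) came from CamkdeltaC transgenic mice and 4 (control 1 to 4) from littermate controls, all labelled male and 3 months old. The promoter that drives the transgene is not given in the labels, a treatment with vorinostat is described there without a drug label on any sample, and 2 input samples were not analysed here. Whether the libraries came from separate animals is not stated either, so every p-value here rests on variation among these libraries that could be technical.

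Each library is represented by the list of peaks called on it. The measure is the number of base pairs (bp) covered by peaks in a gene plus 1 kb on each side, called the gene's window. It carries no read depth, which is unknown, and it cannot exceed the window. The lists held 51903 to 66811 peaks, except that of transgenic 1 with 102285. In that library the median cover of the members was nevertheless 951.5 bp, against 1092 to 1456 bp in control and 1378 to 1526 bp in the other transgenic libraries. Transgenic 1 was the lowest of its group at 41 of 58 members (70.7%), and at 59.5% of all genes tested. Several results are therefore also given without it. On lists of cell type markers, 8 of 8 neuronal genes had a peak in every library, among them Rbfox3, which encodes NeuN. The counts were 2 of 5 for astrocyte, 2 of 5 for oligodendrocyte, 2 of 4 for endothelial and 0 of 6 for microglial genes. A peak in all 8 libraries was also found at 67.5% of all autosomal protein-coding genes and at 16 of 16 genes of dividing cells. Windows differ in length as well, so these counts alone do not establish the identity of the nuclei. Summed cover of the microglial list was 0 to 299 bp in control and 0 to 482 bp in transgenic libraries.

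H3K4me3 was present at most of these genes. A peak in the window was found in all 8 libraries at 58 of the 67 members, while the share among all autosomal protein-coding genes was 67.5%. Over the gene itself with no margin, the count was 47 of 67. The share of all genes was not counted for that setting, so the comparison holds for the 1 kb margin only. Another 3 members had a peak in some libraries and 6 in none. The windows of 52 members overlap that of another member, so neighbouring members often share peaks and are not independent. Among the 58, the median control cover was 1266 bp, against 1894 bp over all genes with a peak in every library, whose windows are longer. The plot of covered length by library gives every member in chromosome order.

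The promoters differ by class in the short sequences they carry. The following 4 were chosen to show an H2A–H2B pair, an H4, an H1 and an H3 promoter that are marked in all 8 libraries, and the last 2 are promoters of genes without a peak in any. They are RefSeq sequences of the GRCm38.p6 assembly (mm10 coordinates), written toward the start site, which follows the last base. Capitals mark matches, on either strand, of TATAAA (the TATA box), CCAAT (the CCAAT box), ATTTGCAT (the octamer known from H2B promoters, bound by Oct-1), AAACACA (the H1 box) and GGTCC (part of the H4 promoter element). H2bc8 lies at chr13:23571221-23571399 on the plus strand and is the whole stretch between its start site and that of H2ac8. The others are H4c8 at chr13:23530794-23531043, H1f2 at chr13:23738557-23738806, H3c13 at chr3:96268404-96268653 and H2ac1 at chr13:23934187-23934436, all on the plus strand, and H2bc23 at chr13:21810200-21810366 on the minus strand.
H2bc8: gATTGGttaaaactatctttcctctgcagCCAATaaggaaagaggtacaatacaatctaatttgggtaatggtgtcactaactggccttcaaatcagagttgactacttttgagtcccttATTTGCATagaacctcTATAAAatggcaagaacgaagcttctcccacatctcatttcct
H4c8: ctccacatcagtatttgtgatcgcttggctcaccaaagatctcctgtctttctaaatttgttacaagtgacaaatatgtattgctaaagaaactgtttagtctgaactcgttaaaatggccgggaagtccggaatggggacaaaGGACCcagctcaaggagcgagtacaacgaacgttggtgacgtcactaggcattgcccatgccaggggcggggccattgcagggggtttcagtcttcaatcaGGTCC
H1f2: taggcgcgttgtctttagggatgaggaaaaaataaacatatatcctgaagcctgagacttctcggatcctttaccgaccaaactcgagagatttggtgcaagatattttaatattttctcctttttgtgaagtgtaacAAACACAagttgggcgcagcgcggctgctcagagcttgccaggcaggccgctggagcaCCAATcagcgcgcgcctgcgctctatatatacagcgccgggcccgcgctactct
H3c13: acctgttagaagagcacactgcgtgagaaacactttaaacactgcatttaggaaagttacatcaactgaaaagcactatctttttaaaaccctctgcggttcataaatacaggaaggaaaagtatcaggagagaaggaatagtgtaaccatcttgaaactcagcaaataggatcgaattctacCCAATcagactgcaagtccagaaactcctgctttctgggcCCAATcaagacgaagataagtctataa
H2ac1: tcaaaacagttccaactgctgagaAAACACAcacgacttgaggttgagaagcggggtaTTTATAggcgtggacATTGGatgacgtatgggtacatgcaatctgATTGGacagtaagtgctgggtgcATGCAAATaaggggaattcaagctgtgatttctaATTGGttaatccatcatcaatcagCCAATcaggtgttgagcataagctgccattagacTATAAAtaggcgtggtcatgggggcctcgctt
H2bc23: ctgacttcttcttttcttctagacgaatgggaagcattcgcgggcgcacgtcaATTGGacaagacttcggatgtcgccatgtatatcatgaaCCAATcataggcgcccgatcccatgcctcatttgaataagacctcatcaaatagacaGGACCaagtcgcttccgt

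RefSeq promoter entries were found for 62 of the 67 members, and were searched over the 250 bases before the start site on both strands, beside the same stretch of 16457 genes. CCAAT was in 82.3% of the histone promoters and in 35.8% of all. It was in all 18 H2A, all 16 H2B and all 6 H1 promoters, in 8 of 10 H3 promoters and in 3 of 12 H4 promoters. TATAAA was in 46.8% against 12.3% of all promoters. ATTTGCAT was in 7 H2A and 6 H2B promoters and in no H1, H3 or H4 promoter, which made 21% of the histone promoters against 1.61% of all. AAACACA was in 5 of 6 H1 promoters and in 14.5% of the histone promoters, against 5.4% of all. GGTCC was in 11 of 12 H4 promoters, though its share of 38.7% over the family was close to the 43.1% of all promoters. TTCGCGC was in 14.5%, all of them H2A or H2B, against 1.78% of all. Of 4 further short sequences, CGCGGG was in 24.2% (20.8% of all), GATTTC in 14.5% (10.2%), and TTTGGCGC (0.523% of all) and CACGTG (6.72%) in none. Matches of CGCGGG and TTCGCGC on opposite strands can overlap, and the CCAAT counts include the reversed box, read as ATTGG. In 10 pairs among these 62 members an H2A and an H2B gene stand back to back, with start sites 164 to 281 bp apart. Their searched stretches overlap, so 1 match can count for both genes. The histone promoters are therefore not independent sequences, and these shares were not tested.

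Most of these letters were also in promoters of genes without the mark in every library. CCAAT was in 44 of 53 promoters of members with a peak in all 8 libraries and in 7 of 9 of the others. For TATAAA the counts were 26 of 53 and 3 of 9, and for ATTTGCAT 11 of 53 and 2 of 9. AAACACA was in 6 of 53 and 3 of 9, GGTCC in 19 of 53 and 5 of 9, CGCGGG in 10 of 53 and 5 of 9, and GATTTC in 7 of 53 and 2 of 9. TTCGCGC was in 9 of 53 and in 0 of 9. These counts were not tested, and near-copies among the 9 share their letters. H2ac1, printed above and unmarked in all 8 libraries, holds TATAAA and CCAAT on both strands and an octamer on the opposite strand. A match is a description of the sequence only.

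H1 genes had the widest cover of the 5 classes in these windows. They encode the linker histones that bind DNA between nucleosomes. Peaks were found in every library at 5 of the 6, with a median control mean of 2009 bp (1127 to 2288 bp), or 71.9% of the window, where the medians of the other classes lay between 42.3% and 49.3%. H1f4 (Hist1h1e, chr13:23621777-23622558) was covered over 2116, 2152, 2325 and 2557 bp in control 1 to 4 and over 1904, 2302, 2263 and 2485 bp in transgenic 1 to 4. H1f2 (Hist1h1c, chr13:23738807-23739531), whose mRNA is known to be made outside S phase as well, was covered over 2191, 2062, 1832 and 2139 bp in control and 2068, 1844, 2071 and 2123 bp in transgenic libraries. The groups overlapped at both genes. H1f1 (Hist1h1a, chr13:23763668-23764412), the thinnest of the 5, had 1156, 1101, 1146 and 1104 bp in control and 915, 1615, 1286 and 1404 bp in transgenic libraries: 3 transgenic libraries were above all controls and transgenic 1 below them. H1f6 (Hist1h1t), the testis-specific linker histone, had no transgenic peak, and only 8 bp in control 2 and 25 bp in control 4, at the edge of its window.

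Among H2A genes, 15 of 18 were marked in all 8 libraries, with a median control mean of 1157 bp. At H2ac20 (Hist2h2ac, chr3:96220413-96220880) peaks filled the whole window of 2468 bp in all 4 control libraries and in transgenic 2 to 4, while transgenic 1 had 2278 bp. A window filled to its end leaves no room for a higher value. H2aw (Hist3h2a, chr11:58954685-58955192), outside the large clusters, was nearly filled too, with 2508, 2408, 2508 and 2441 bp in control and 2457, 2508, 2508 and 2508 bp in transgenic libraries. The thinnest H2A gene marked throughout was H2ac12 (Hist1h2ah, chr13:22035122-22035643), at 302, 200, 562 and 611 bp in control and 270, 711, 618 and 1156 bp in transgenic libraries. Its divergent partner H2bc12 had the same values, since both windows hold the same peaks. H2ac18 (Hist2h2aa1, chr3:96245497-96246052) had 632, 698, 650 and 623 bp in control and 847, 690, 861 and 745 bp in transgenic libraries, with transgenic 2 inside the control range and the other 3 above it.

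For H2B the count was likewise 15 of 18, with a median of 1342 bp. The highest value belonged to H2bc6 (Hist1h2be, chr13:23583670-23621124), with 3688 ± 672 bp in control and 3709 ± 202 bp in transgenic libraries (SD, n = 4 each), but the annotation gives it a far longer gene than other members, and its window of 39455 bp takes in the peak over H1f4. H2bc4 (Hist1h2bc, chr13:23684199-23692480) had 2538, 2402, 2785 and 2478 bp in control and 2823, 2755, 2685 and 2761 bp in transgenic libraries, where control 3 alone reached the transgenic range. H2bu2 (Hist3h2ba, chr11:58948911-58949372) filled its window of 2462 bp in control 3 and in transgenic 2 and 3. The lowest of the other libraries was control 4, at 2283 bp. H2bc21 (Hist2h2be, chr3:96221072-96223738), which is known from polyadenylated mRNA in non-dividing cells, had 2310, 2130, 2299 and 2231 bp in control and 1921, 2275, 2190 and 2319 bp in transgenic libraries. Those ranges overlapped, with transgenic 1 the lowest of the 8.

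H3 genes showed 11 of 12 marked in all 8 libraries, with a median of 1052 bp. H3c13 (Hist2h3b, chr3:96268654-96269155) was the widest, at 1658, 1887, 1890 and 1773 bp in control and 1512, 1714, 1720 and 1925 bp in transgenic libraries. H3c2 (Hist1h3b) was the thinnest, with a control mean of 298.5 bp. H3c10 (Hist1h3h, chr13:21717628-21718115) had 750, 1040, 1254 and 1164 bp in control and 1086, 1357, 1289 and 1500 bp in transgenic libraries: transgenic 2 to 4 were above all controls and transgenic 1 within them. H3c6 (Hist1h3e, chr13:23561475-23562385) went the other way in the mean, with 1516 ± 168 bp in control and 1391 ± 166 bp in transgenic libraries (SD, n = 4 each), and its groups overlapped.

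H4 genes were marked in all 8 libraries at 12 of 13, with a median of 1198 bp. H4c14 (Hist2h4, chr3:96262934-96263317) was covered over 2304, 2214, 2110 and 2102 bp in control and 2126, 2292, 2106 and 2160 bp in transgenic libraries. The thinnest was H4c17 (Hist1h4m), at 327 ± 56.8 and 328 ± 65.2 bp. H4c12 (Hist1h4k, chr13:21750145-21750553) had 1454, 1583, 1793 and 1537 bp in control and 1400, 1528, 1526 and 1416 bp in transgenic libraries. H4f16 (Hist4h4, chr6:136803993-136804431), the single member on chromosome 6, had 1026, 973, 977 and 1333 bp in control and 946, 931, 979 and 959 bp in transgenic libraries. At H4c12 and at H4f16 the transgenic mean was lower and the ranges overlapped. H4f16 also had the highest fold enrichment in control libraries by the authors' own peak values, a mean of 45.3 against a median of 16 over the members (6.27 to 45.3). In transgenic libraries its mean was 38.1, below H2aw at 43.7 and H3c13 and H2bc18 at 41.1. It was the 1 member whose peak ranked above the 90th percentile of its list in every library. The median rank of the members was at the 78th percentile.

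The 9 members without a peak in every library fell into 2 sets. H1f6, H2ac1 and H2bc1 encode testis-specific histones, and the last 2 (Hist1h2aa and Hist1h2ba), at the end of the distal block of chromosome 13, had no peak in any library. The other 6 belong to near-copies, where the placement of single 50-bp reads is uncertain and was not described in the sources used here. H2bc23 (Hist1h2bq) and H4bc24 (the annotation's symbol for Hist1h2br, counted here with H2B) share 300 of 300 promoter bases and were both unmarked, as was H2ac23 (Hist1h2ao). H2ac24 (Hist1h2ap), its near-copy, had 163 bp in transgenic 4 only. The annotated start sites of these 2 are offset by 100 bases, and the 200 promoter bases that they share are identical. Over the stretch they share, the promoters of H4c17 and H4c18 (Hist1h4n) are 99.7% identical, yet the former had a peak in 8 libraries and the latter in 2, with 200 bp in transgenic 2 and 207 bp in transgenic 4. Those of H3c15 (Hist2h3c2) and H3c14 (Hist2h3c1) are 99.6% identical, with peaks in 8 and in 0 libraries. The peak region in H3c15's window (chr3:96239459-96239840) lay outside that gene (chr3:96238479-96239127) and reached into H2ac19 (chr3:96239779-96240374). Those of H2ac19 and H2ac18 are 96.5% identical, and the windows of both genes were marked throughout. The peak region in H2ac18's window (chr3:96244445-96245398) stopped short of the gene itself (chr3:96245497-96246052). How far read placement set these differences between copies was not tested.

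Where the start site is known, the mark could be placed along the gene. For 53 members with a promoter entry and a peak in all 8 libraries, 67% ± 4.99 of start sites lay in a peak in control libraries (SD, n = 4), and 77.7% ± 6.48 of those of 11135 genes chosen in the same way. Cover of the histone genes peaked at 400 bp into the gene, at 79.7%, where all genes were at 84.7%. The curve of all genes was highest at 300 bp, at 85.3%. Cover then fell off sooner at the histone genes, whose median length is 492 bp: 1 kb into the gene the shares were 30.2% and 55.3%. Just upstream, at 200 bp before the start, they were 57.1% and 74.6%. Far upstream the order was the other way round, with 19.3% and 5.04% at 2 kb, a distance at which a histone gene in a cluster often meets its neighbour. Where a gene had several start sites, the one with the widest cover was taken. Among genes with a single start site the shares at the start were 66.3% for 52 histone genes and 76.9% for 8900 genes, and 1 kb into the gene 30.8% and 54.3%. Transgenic libraries gave 72.6% ± 11.7 at the start site and 79.2% ± 8 at 400 bp (SD, n = 4), ranges that take in the control means.

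**Figure D1:**
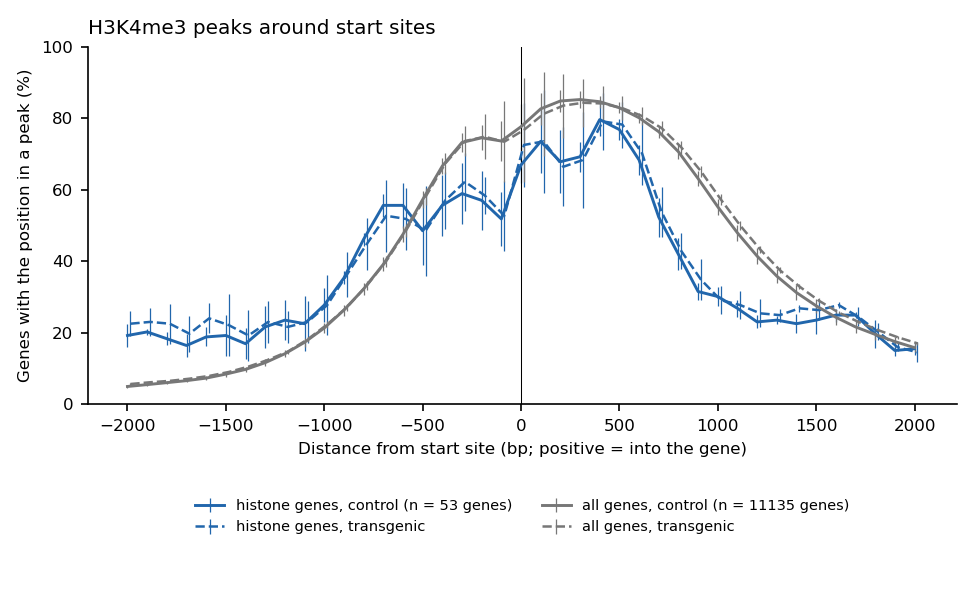
Share of genes (y axis, percent) whose position at a given distance from the start site (x axis, bp, positive into the gene) lies in an H3K4me3 peak, for 53 histone genes and 11135 genes marked in all 8 libraries, as means over 4 libraries with SD bars. The histone curve is highest at 400 bp (79.7% in control libraries) and drops to 30.2% at 1 kb, where the curve of all genes is at 55.3%.

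Several H2A and H2B genes stand back to back over a shared promoter. Among the 62 members with a promoter entry there were 10 such pairs, with start sites 164 to 281 bp apart. In 7 of them both genes were marked in all 8 libraries. The 5 members without an entry, which include the H2B genes H2bc21 and H2bc4, were not searched for pairs. H2bc21 lies next to H2ac20 and H2bc4 next to H2ac6, and these genes were all marked in all 8 libraries. At H2ac8–H2bc8, with start sites 180 bp apart and the stretch between them printed above, peaks spanned all of it in 7 of 8 libraries, and transgenic 1 had 120 bp. H2ac15–H2bc15 was also spanned in 7 of 8, again with transgenic 1 short at 120 bp. By contrast the stretch between H2bc7 and H2ac7 was never fully covered and had no peak in control 4 and transgenic 3, although both genes were marked. H2ac12–H2bc12 had cover between its start sites in only 4 libraries. The pairs H2bc1–H2ac1, H2bc23–H2ac23 and H2ac24–H4bc24 had none.

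No histone gene passed the test for a difference in covered length between the groups. In the fit over 14990 genes with a peak in at least 4 libraries (limma, on log2 of the covered bp plus 100 bp, adjusted over all genes), 0 of the 58 members tested passed 0.05, and 0% of all genes did. The members' smallest adjusted p in limma was 0.982, at H3c10. At an unadjusted p under 0.05 there were 0 members, where 5.13% of all genes fell. The log2 differences, transgenic minus control, ran from -0.34 to 0.54 with a median of -0.01, 25 above 0 and 33 below, and the median over all genes was 0.00. The added 100 bp shrink the differences of genes with little cover. No member had all transgenic libraries above or all below the controls, while 2.9% of all genes were higher and 0.454% lower without overlap.

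At the genes named above the estimates were as follows. H3c10 had a log2 difference of 0.28 ± 0.13 (SE), H2ac18 0.21 ± 0.15 and H1f1 0.15 ± 0.12. For H2ac12 and H2bc12 it was 0.54 ± 0.39, the widest error of these, and it moved to 1.13 with a stricter q threshold, to 0.82 without transgenic 1, to 0.30 without transgenic 4 and to 0.31 without control 2. The estimate of H3c10 was 0.16 without control 1, and that of H1f1 was 0.25 without transgenic 1 and 0.05 without transgenic 2. On the negative side H4f16 stood at -0.17 ± 0.10 (-0.10 without control 4), H3c6 at -0.14 ± 0.07, H4c12 at -0.13 ± 0.08 (-0.07 without control 3), H3c13 at -0.09 ± 0.07 and H2bc21 at -0.07 ± 0.06. The 95% interval lay within a change of 1.5-fold in either direction at 42 of 58 members (72.4%), against 81.3% of all genes tested, and for the other 16 the data do not bound the change that closely. By class, the numbers above and below 0 were 2 and 3 for H1, 8 and 7 for H2A, 7 and 8 for H2B, 5 and 6 for H3, and 3 and 9 for H4. Other scalings move members and other genes together: 33 members were above 0 and 25 below without centring, and 8820 and 6170 of all genes, and with quantile normalization the numbers were 19 and 39 for the members and 5957 and 9033 for all genes. Without transgenic 1, still 0 members passed in limma (smallest adjusted p 0.831), and 3 had an unadjusted p under 0.05: H2ac12, H2bc12 and H1f1.

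**Figure D2:**
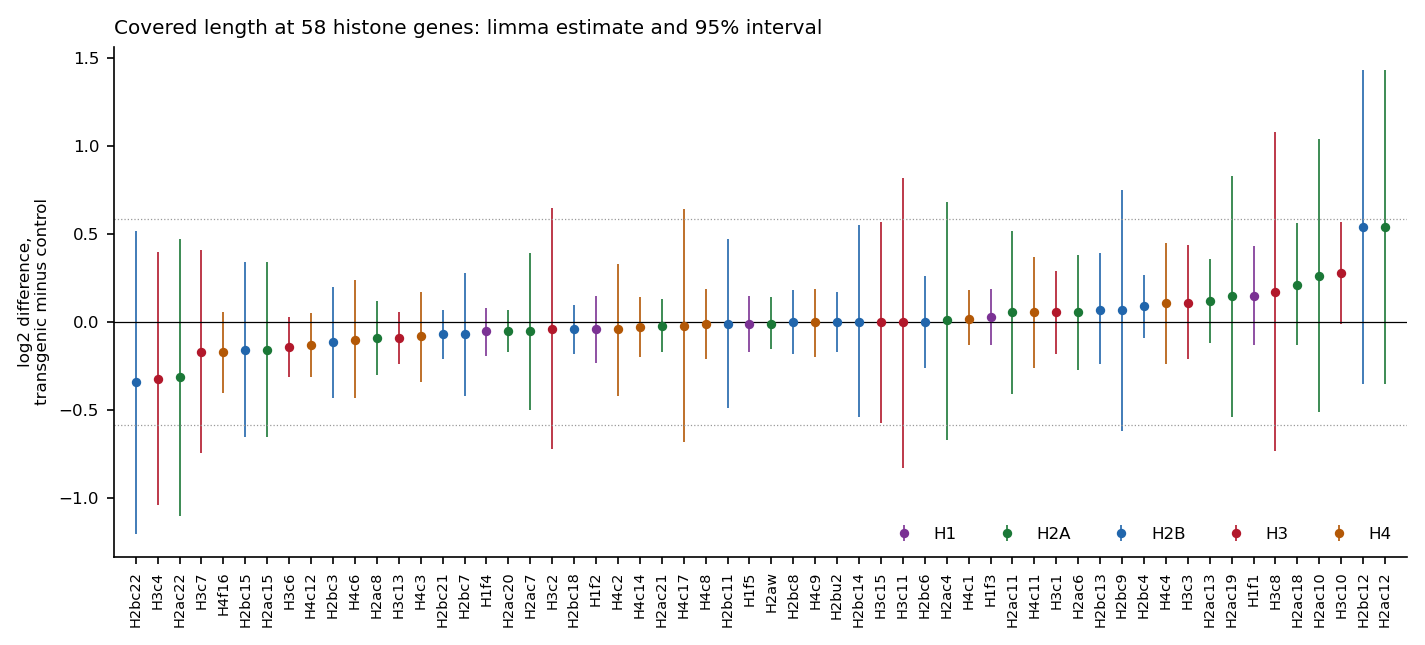
Difference in covered length (y axis, log2, transgenic minus control) for the 58 histone genes tested in limma, ordered by size, with 95% intervals, colours for histone class and dotted lines at a change of 1.5-fold. Estimates run from -0.34 to 0.54, and 42 of the 58 intervals stay inside the dotted lines.

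Taking each stretch of merged peaks as 1 feature removes the double counting of shared peaks. Of 57553 regions formed from the 8 lists, 51 touched a member's window, 44 of these had a peak in all 8 libraries, and 28 touched the windows of at least 2 members. In limma 0 of the 51 passed an adjusted p of 0.05, against 0.0174% of all regions, and 4 (at H2bu2, at H2ac21, H2ac20 and H2bc21, at H1f2 and at H4c12) had an unadjusted p under 0.05, against 9.29% of all regions. The smallest adjusted p was 0.51, at H2bu2, whose region (chr11:58947657-58950995) was covered over 2928 ± 213 bp in control and 2772 ± 181 bp in transgenic libraries (SD). Differences at the 51 regions were above 0 at 11 and below 0 at 40, with a median log2 of -0.09, against 0.03 over all regions, of which 53% were above 0 (21.6% of the histone regions). These sets are unlike, since a peak in 2 libraries was enough for a region to be counted among all regions. The share above 0 among all regions with a peak in all 8 libraries was not counted. Dropping the centring of each library on its own median moves all regions alike: 30 histone regions (58.8%) and 71% of all regions were then above 0, with medians of 0.02 and 0.14. With centring but without transgenic 1, 21 of the 51 (41.2%) and 54.8% of all regions were above 0, with medians of -0.03 and 0.03.

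The clusters as wholes were compared next. Members less than 300 kb apart form 3 blocks, taken with 1 kb on each side: a proximal block on chromosome 13 (chr13:21714711-22044658, 23 members), a distal block (chr13:23530044-23935913, 31 members) and the cluster on chromosome 3 (chr3:96218885-96271192, 10 members). The proximal block was covered over 29861, 30845, 34719 and 35269 bp in control and 29048, 35544, 30171 and 34664 bp in transgenic libraries. In the distal block the values were 27973, 30047, 31284 and 32284 bp in control and 25883, 33238, 30291 and 34278 bp in transgenic libraries. The chromosome 3 cluster was steadier, at 8649, 8713, 8625 and 8937 bp in control and 8499, 8884, 8633 and 9193 bp in transgenic libraries. In all 3 the groups overlapped.

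The differences in means, transgenic minus control, were -317 bp for the proximal block, 526 bp for the distal block and 71.2 bp for the chromosome 3 cluster. None passed an exact two-sided permutation test over 70 assignments of the libraries, with p of 0.8, 0.829 and 0.686, each 0.829 after Benjamini-Hochberg adjustment over the 3 blocks. Leaving out transgenic 1 moved the differences to 786, 2205 and 172 bp. With only 3 libraries left in that group, this permutation test cannot give a p under 0.05. It therefore cannot decide whether these differences would pass.

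A different denominator changed this. As a share of all autosomal bp covered in the same library, the proximal block held 0.0826%, 0.081%, 0.0909% and 0.0849% in control and 0.0622%, 0.0794%, 0.0692% and 0.0793% in transgenic libraries, so that every transgenic library was below every control. The chromosome 3 cluster held 0.0227% ± 0.000992 in control and 0.0197% ± 0.00116 in transgenic libraries (SD), again without overlap. For both the exact permutation p was 0.0286, the smallest that 4 against 4 libraries can give, and 0.0429 after adjustment over the 3 blocks. The share was 1 of several alternative settings, for which this adjustment does not account. Transgenic 1 had the lowest share in each block (0.0622%, 0.0554% and 0.0182%), and the shares were not tested without it. How many other stretches of the genome would pass in the same way was not counted. For the distal block the shares were 0.079% ± 0.00207 and 0.0694% ± 0.01, and the exact permutation p was 0.0857. The denominator itself differed: autosomal cover was 38.5 ± 2.24 Mb in control and 44.7 ± 1.45 Mb in transgenic libraries (SD, exact permutation p = 0.0286), while the bp over the blocks overlapped between the groups. Depth is unknown, so more marked chromatin outside the blocks and a difference in library yield cannot be told apart.

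The blocks differ in what their peaks lie on. In control libraries 95.1% of the cover of the distal block and 99.7% of that of the chromosome 3 cluster fell in members' windows, which make up 26.3% and 37.3% of their length. In the proximal block it was 42.8%, or 13980 bp on average. Windows of tRNA genes, which are transcribed by RNA polymerase III and lie among the histone genes there, held another 40%, at 13083 ± 597 bp in control and 12386 ± 814 bp in transgenic libraries (SD, n = 4 each), and 18 of these 31 tRNA genes had a peak in all 8 libraries. The remaining cover lay mostly at 3 other coding genes, Zfp184, Pom121l2 and Prss16. Members' windows alone held 13980 ± 2032 bp in control and 14546 ± 2604 bp in transgenic libraries of that block (SD, n = 4 each).

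**Figure D3:**
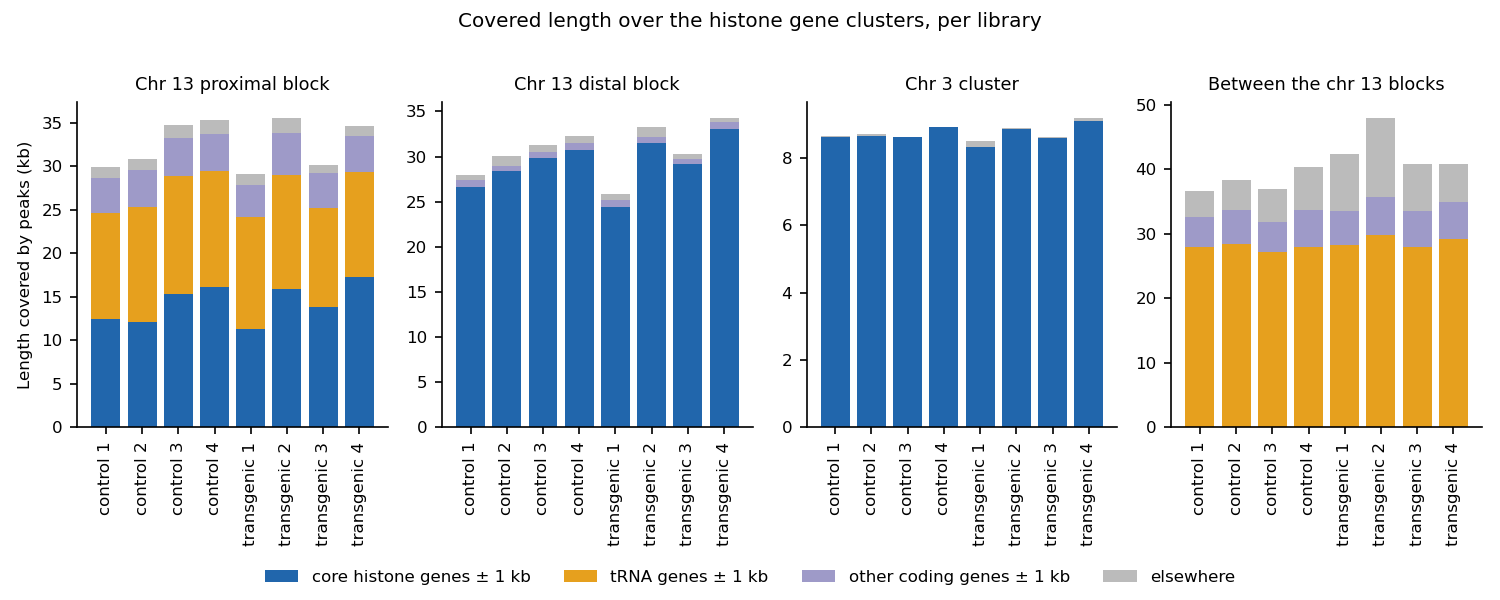
Length covered by peaks (y axis, kb, each panel with its own scale from 0) in each of 8 libraries, stacked by what the peaks lie on, for the 3 histone gene blocks and the stretch between the 2 blocks of chromosome 13. Histone gene windows hold 95.1% of the control cover in the distal block and 42.8% in the proximal block, where tRNA genes hold 40%.

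Between the chromosome 13 blocks lie no core histone genes but 36 vomeronasal receptor genes, which serve pheromone detection in the nose, of which 0 had a peak in all 8 libraries. Peaks in this stretch covered 36586, 38369, 36918 and 40338 bp in control and 42439, 47960, 40872 and 40812 bp in transgenic libraries, the latter all higher. No test was fixed for it. Most of the cover (73.2%) was at tRNA genes, 34 of 45 of which had a peak in all 8 libraries, where 180 of 309 other autosomal tRNA genes (58.3%) did. Peaks at neither tRNA nor coding genes made 5098 ± 1130 bp in control and 8624 ± 2711 bp in transgenic libraries (SD, n = 4 each). Inside the blocks, 4 of 9 other coding genes were marked in all 8 libraries. Hfe, the iron-regulating gene of hereditary haemochromatosis, was marked at 694 ± 59.8 bp in control libraries, while the phosphate transporter genes Slc17a1 to Slc17a4 and Trim38, between H1f1 and the unmarked H2bc1, had no peak in any library.

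Other genes of histone supply were nearly all marked. Replacement histone genes, which supply histones outside S phase, had a peak in every library at 11 of 11, with a median control mean of 2076 bp against 1266 bp at the core histone genes, over windows that differ in length. H3f3a, which encodes H3.3, had 2975 ± 124 bp in control and 2991 ± 413 bp in transgenic libraries, and H1f0, the linker histone of resting cells, 3842 ± 333 and 3685 ± 206 bp (SD, n = 4 each). Among genes for factors that transcribe histone genes or process their mRNA, 16 of 17 were marked throughout. Npat had 2097 ± 69.6 bp in control and 2132 ± 141 bp in transgenic libraries, while Gon4l had a peak in 3 libraries only. In limma 0 genes of either list passed (0% of all genes), with 5 above and 6 below 0 for the replacement histones and 7 above and 9 below 0 for the factors. At an unadjusted p under 0.05 there was 1 of the genes tested in these lists, Pou2f1, the gene of the octamer-binding Oct-1, where 5.13% of all genes fell. It had 2942, 3012, 2688 and 2931 bp in control and 2009, 2630, 2801 and 2888 bp in transgenic libraries, with transgenic 1 far below the rest. Genes of dividing cells such as Mki67 and Top2a were marked too, 16 of 16 in all 8 libraries, with a median control mean of 1029 bp.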

How the data were processed

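The authors deposited 1 peak list per H3K4me3 library, in the layout MACS2 writes and on mm10. Per the submitters' processing notes, Bowtie2 2.0.2, MACS2, SAMtools 1.3.1, deepTools 3.0.1, limma, DiffBind and FastQC 0.11.5 were used. The sources used here give neither their roles and settings nor the background library of each list. Each deposited peak has a whole-number score, a fold enrichment, −log10 p-values and q-values, and a summit offset. The deposited −log10 q-values start at 1.31 to 1.42. The lists hold no counts, so depth is unknown, and deeper libraries can give more and wider peaks.

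From these files peaks were merged per library and covered bp summed per gene window (gene plus 1 kb each side, RefSeq annotation of GRCm38.p6; 107 genes on other scaffolds set aside). The log2 of covered bp plus 100 bp, less the library's median over genes marked in all 8 libraries, was fitted with limma 3.58.1 in R 4.3.3 (trended, robust variance) over 14990 genes marked in at least 4 libraries, with Benjamini-Hochberg adjustment. Where a gene had several RefSeq start sites, the one with the widest cover was used, a choice by the measured value that favours genes with several. Genes with a single start site are given beside. Cover inside the blocks was assigned to members first, then tRNA genes, then other coding genes. On simulated data with 200 changed genes, drawn from genes under a set limit of mean cover, the gene fit recovered 0 at 1.25-fold, 67 at 1.5-fold and 139 at 2-fold. Members, lists and tests were chosen with earlier results of these data known. Named genes were all members not marked in every library, the widest and thinnest of each class in control libraries, in each direction the 5 of smallest p, and 9 fixed members. H4c8, H2bc8 and the paired and copied genes were named for their sequences or positions after values were seen. Alternatives covered the pseudocount, filter, centring, window, q threshold, equal numbers of top-ranked peaks, replicate block and leaving out each library.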

Additional observations from a re-analysis of the deposited data

Results flagged for a closer look

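Within groups of 4 libraries, 64 groups of values at the named members and the 3 blocks were examined for a library far from the other 3, and 7 were found. Chance alone marks about 1 group in 20 where values are normally spread. That rate does not hold where the other libraries fill the window or are at 0, since any departure is then flagged. This was so at H2aw, H2ac20 and H2ac24, and nearly so at H2bu2. The 7 of 64 can therefore not be set against that rate. At H2bu2 transgenic 4 had 2324 bp against 2456 to 2462 bp in the other transgenic libraries. At H2aw transgenic 1 had 2457 bp against 2508 bp, and at H2ac20 2278 bp against 2468 bp, in both cases a library short of a window that the other 3 filled. At H4c17 control 2 had 243 bp against 348 to 368 bp, and transgenic 1 had 230 bp against 354 to 366 bp. At H2ac24 transgenic 4 had 163 bp where the other 3 had 0. At H4f16 control 4 had 1333 bp against 973 to 1026 bp in the other controls. Of these, 3 fell on transgenic 1, the library with the most peaks and the thinnest cover of the members.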

How the results depend on the processing

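The count of histone genes past 0.05 in limma stayed 0 under all 19 alternatives, and the count with a peak in all 8 libraries ranged from 47 (no margin) to 61 (margin of 2 kb), with 58 whichever library was left out. The share of all genes was not counted at these alternatives. At unadjusted p under 0.05 the replicate block gave 1 member, H3c10, as did leaving out control 3, while leaving out control 1 gave H3c6 and leaving out transgenic 1 gave H2ac12, H2bc12 and H1f1. Deviations of same-numbered libraries had correlations of 0.0594, -0.000506, -0.0818 and 0.299. Only for transgenic 4 was the control of the same number the closest match. The labels do not say that a number marks a shared litter or day, so numbers were not taken to pair libraries. As paired differences the blocks stayed at -317, 526 and 71.2 bp, with exact sign-flip p of 0.75, 0.75 and 0.375, where 0.125 is the smallest possible.

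The block differences depended on the setting. As a percent of autosomal cover, transgenic minus control, they were -0.0123 (proximal), -0.00956 (distal) and -0.003 (chromosome 3), the first and last past the threshold by an exact permutation test. A margin of 10 kb turned the chromosome 3 difference to -50.5 bp. Leaving out 1 library gave -1379 to 786 bp for the proximal block, -593 to 2205 bp for the distal block and -59 to 172 bp for chromosome 3. The cause was not tested. Among 14 named genes, 246 of 266 alternative log2 differences kept their direction and 20, at 4 genes near 0, did not: H3c13 (0.05 with the stricter q threshold), H2bu2 (0.01 with equal numbers of peaks, 0.02 without centring, 0.00 with a pseudocount of 500 bp, -0.05 to 0.04 leaving out 1 library), H2aw (0.01 with equal numbers, 0.01 with 2 kb, 0.02 without centring, -0.04 to 0.02 leaving out 1) and H1f2 (0.02 with equal numbers, -0.09 to 0.01 leaving out 1). Chosen after seeing the data, the region fits without centring and without transgenic replicate 1 also called 0 of 51 histone regions, and start sites of genes with a single one gave 66.3% in a peak against 67%. The intervals reflect the spread between libraries. On simulated data with each gene's own spread, taken before centring, 33.5% of 200 genes changed by 1.5-fold were recovered, so small differences could be missed. The changed genes were drawn only from genes under a set limit of mean cover, so the rate is not that of all genes. The median SE was 0.14 for the histone genes tested and 0.09 for all genes tested. The simulation also set no upper limit to cover, so the recovery rate need not hold for the histone genes.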
